A study of Mus musculus with 6 samples.

Results

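Hepatic expression of 35 genes of fatty acid oxidation and ketogenesis was examined in *Txndc5*-deficient (KO) and wild-type (WT) male mice. The genes were chosen by symbol as members of PPARA-driven uptake, oxidation and ketone body formation, all 35 had a row in the deposited gene table, and that table held 16123 genes. The study sequenced polyA RNA of liver in 6 libraries, 3 WT and 3 KO, each made from an RNA pool of 3 mice. The mice were 2 months old at use, received a purified chow diet for 4 weeks and were fasted for 16 h before sacrifice, and these conditions were shared by both groups. By the labels, WT mice were of strain C57BL/6Rj, and KO mice were of strain C57BL/6JRj-Txndc5<em2Mdnp>/Ciba, a whole-body CRISPR deletion of exon 3 of *Txndc5* bred to homozygosity from 1 founder. Mice of both genotypes came from crosses of heterozygous parents.

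The 6 libraries held 44040160 to 46050030 clean reads, of which 91.6 to 93.7% mapped. The gene table gave 1 expression value per genotype, so most genes had no error and no test. These values were not plain means of a genotype's own 3 libraries. For *Pdk4* they were 55.1 in WT and 73.9 in KO, against means over its libraries of 52.9 and 76.0, as described below. The value of *Txndc5* itself was 2697 in WT against 90.8 in KO, 29.7-fold lower in KO, as the labels say. The liver label was met by the hepatocyte markers, with *Alb* at 1.33e+06 in both genotypes. In whole liver, fewer cells of a type and less RNA per cell cannot be told apart.

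Fasting sends fatty acids from adipose tissue to the liver, where they are activated to acyl-CoA, carried into mitochondria by the carnitine shuttle and shortened by beta-oxidation. The acetyl-CoA formed is turned into ketone bodies, and electrons pass through the electron transfer flavoprotein to the respiratory chain. Peroxisomes shorten very long chains, and thioesterases release free fatty acids from acyl-CoA. PPARA, a nuclear receptor that binds fatty acids and pairs with RXR, drives the transcription of many of these genes in the fasted liver. The pair recognises repeats of the core AGGTCA with 1 base between them.

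Upstream sequence of 3 genes is shown because each contains that core within 250 bases before the transcription start, and because the genes differed in their KO to WT ratio. *Fabp1* encodes the liver fatty acid binding protein, *Cpt1a* the entry enzyme of the carnitine shuttle and *Acot4* a peroxisomal thioesterase. The sequences are those of RefSeq in build GRCm38.p6, on the plus strand and read 5′ to 3′ up to the base before the start. Capitals mark matches to AGGTCA on either strand and, in *Fabp1*, also a longer match to a looser form of the repeat.
Fabp1 (chr6:71199629-71199878): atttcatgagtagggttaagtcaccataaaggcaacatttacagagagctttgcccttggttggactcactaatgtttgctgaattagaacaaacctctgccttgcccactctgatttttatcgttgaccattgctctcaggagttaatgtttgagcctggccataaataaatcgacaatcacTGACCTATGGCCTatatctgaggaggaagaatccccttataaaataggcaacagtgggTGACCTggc
Acot4 (chr12:84038129-84038378): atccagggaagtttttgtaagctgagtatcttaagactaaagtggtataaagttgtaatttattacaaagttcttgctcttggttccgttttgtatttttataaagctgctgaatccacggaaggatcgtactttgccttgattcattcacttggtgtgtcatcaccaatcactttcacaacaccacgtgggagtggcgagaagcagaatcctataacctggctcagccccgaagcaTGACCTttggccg
Cpt1a (chr19:3323051-3323300): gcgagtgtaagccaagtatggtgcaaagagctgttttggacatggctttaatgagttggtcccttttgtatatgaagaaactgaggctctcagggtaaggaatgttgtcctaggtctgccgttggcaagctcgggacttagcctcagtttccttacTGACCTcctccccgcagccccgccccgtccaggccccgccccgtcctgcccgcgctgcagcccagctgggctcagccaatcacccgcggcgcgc

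RefSeq promoter windows, from 250 bases before to 50 after the start, were at hand for 31 of the 35 genes. The strict repeat (AGGTCA, any 1 base, AGGTCA), searched on both strands, was in 0 of these 31 genes and in 0.0396% of all 32851 windows. The looser repeat, in which the fourth base of each copy is free (AGGNCA) and which contains the strict one, was in 1 of the 31, *Fabp1*, with its first base at position -67 from the start, and in 0.381% of all windows. The core AGGTCA alone, which also lies inside the strict repeat, was found in 10 of the 31 genes (32.3%) and in 16.3% of all windows or 18.1% of all genes with a window. Besides the 3 genes printed, these were *Acadm*, *Acadvl*, *Acot3*, *Cd36*, *Creb3l3*, *Echs1* and *Slc27a2*. In *Acot3* the matches lay after the start. A match describes letters in the window, and enhancers farther away were not searched.

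Across the 35 genes, 24 had a higher value in KO than in WT and 11 a lower one. The ratio is given throughout as log2((KO value + 1)/(WT value + 1)), so that positive values mean more in KO. Its median over the 35 genes was 0.083, against -0.047 over the 11367 expressed genes, meaning here all genes whose WT and KO values average 10 or more, and 42.3% of those genes were above 0. The share above 0 depended on the scale: centring on the median of those genes gave 27 of 35, and scaling both genotypes to the same sum gave 30 of 35. The 42.3% is no background for these counts. Centring by construction puts as many expressed genes above 0 as below it, and their share after scaling was not counted. Summed over the 35 genes, the values were 354686 in WT and 366938 in KO, which was 1.79% and 1.98% of the sum of all genes.

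A ratio over 0.5 was reached by 1 gene of 35, *Acot4*, where 2.38% of all expressed genes passed that limit. After centring the count was 4, with *Acot3*, *Ppara* and *Acot2*, against 3.19% of expressed genes, and after scaling to the same sum it was 5, with *Pdk4* as well, against 4.35%. No oxidation gene was under -0.5, where 7.61% of expressed genes were. At the smaller limit of 0.25, 10 of the 35 genes (28.6%) were over it and 3 (8.57%) under -0.25, compared with 12.4% and 22.2% of expressed genes. Among the 31 oxidation genes that averaged 1000 or more, 6 were over 0.25 (19.4%) and 3 under -0.25 (9.68%). The shares among the 1765 genes of that strength were 9.46% and 13.5%. Of the same 31 genes 0 were over 0.5 and 0 under -0.5, against 1.47% and 2.21% of the 1765. With shares this small, a count of 0 does not set the oxidation genes apart from genes of like strength. The 10 genes over 0.25 were 4 neighbouring thioesterases, *Ppara*, *Pdk4*, *Cd36*, *Vnn1*, *Ehhadh* and *Acsl1*, the last of them barely over it and under it with a pseudocount of 10. The 3 under -0.25 were *Etfa*, *Etfb* and *Fabp1*. These counts have no test, since the values carry no error.

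**Figure D1:**
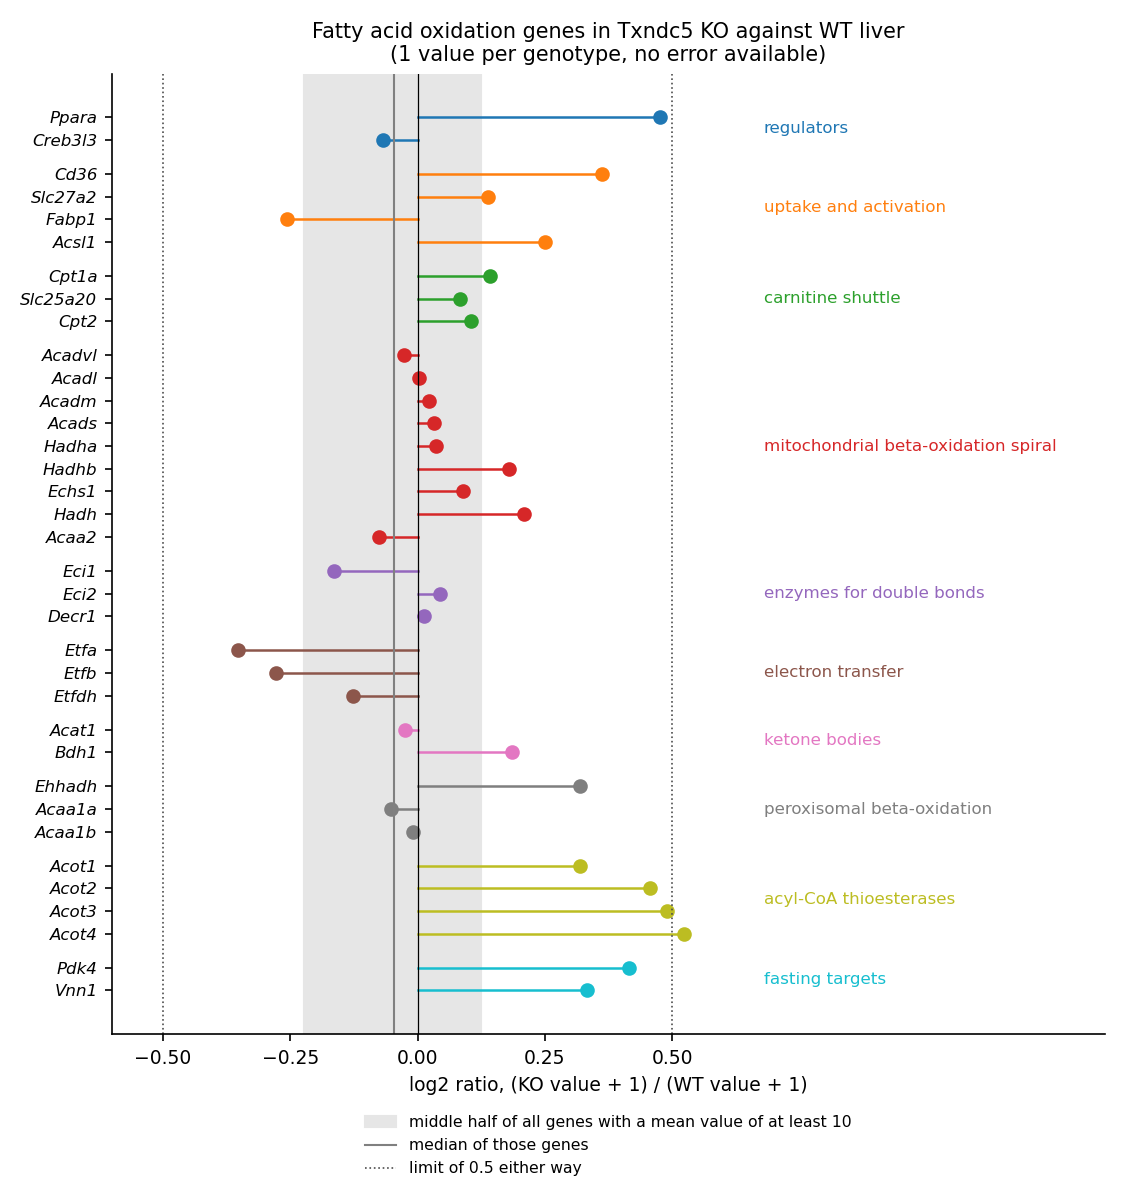
Log2 ratio of the KO to the WT value (x axis) for the 35 oxidation genes, grouped by role on the y axis, with 1 point per gene. The grey band spans the quartiles of all expressed genes, from -0.22 to 0.12. The thioesterases, *Ppara* and the fasting targets lie to the right of the band, *Acot4* alone past 0.5 before any centring or scaling. Also to its right are *Cd36*, *Ehhadh*, *Acsl1*, *Hadh*, *Bdh1*, *Hadhb*, *Cpt1a* and *Slc27a2*, while *Etfa*, *Etfb* and *Fabp1* lie to its left.

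Of the regulators, *Ppara* itself (NCBI gene 19013, chr15:85734983-85802819 in mm10) was at 3501 in WT and 4872 in KO. This ratio of 0.48 was the third highest of the 35 and above 97.3% of all expressed genes. *Creb3l3*, a membrane-bound transcription factor of the endoplasmic reticulum that works with PPARA in fasting, was at 16377 and 15618, a ratio of -0.068. The regulators thus stood apart in direction, *Ppara* higher in KO and *Creb3l3* close to its WT value.

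In uptake and activation, *Cd36*, the fatty acid translocase of the plasma membrane, had low values of 117 in WT and 151 in KO, a ratio of 0.36. *Slc27a2*, a transporter with very long chain acyl-CoA synthetase activity, had 35643 and 39245 (0.14). *Acsl1*, the main long chain acyl-CoA synthetase of liver, had 32597 and 38765 (0.25), and it shares 1039 exon bases with the antisense gene Gm45244. *Fabp1* ran the other way, from 36534 in WT to 30580 in KO (-0.26), and was the only gene of these 4 with a lower value in KO.

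All 3 genes of the carnitine shuttle had slightly higher values in KO, within a narrow range. *Cpt1a*, which forms acylcarnitine at the outer mitochondrial membrane, was at 17124 in WT and 18905 in KO (0.14). The exchanger *Slc25a20* was at 3584 and 3796 (0.083). *Cpt2*, which returns the chain to CoA inside the mitochondrion, was at 5136 and 5520 (0.10). None of the 3 reached the limit of 0.25.

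The 9 enzymes of the mitochondrial beta-oxidation spiral had ratios between -0.076 and 0.21, with a median of 0.032. Among the acyl-CoA dehydrogenases, which take the first step for different chain lengths, *Acadvl* was at 8730 in WT and 8570 in KO (-0.027). *Acadl* was at 2528 and 2533 (0.0026), *Acadm* at 3497 and 3554 (0.023) and *Acads* at 5155 and 5271 (0.032). The long chain dehydrogenases and the medium and short chain forms thus differed by at most 2.26% between genotypes. *Acadvl* shares 1151 exon bases with *Dvl2* on the opposite strand, which was weak, at 45.6 in WT and 59.0 in KO.

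*Hadha* and *Hadhb* encode the subunits of the mitochondrial trifunctional protein and lie head to head on chr5, 85 bases apart (chr5:30118304-30155162 on the minus strand and chr5:30155248-30184593 on the plus strand, mm10). *Hadha* was at 14577 in WT and 14939 in KO (0.035), and *Hadhb* at 3988 and 4519 (0.18). *Echs1*, the short chain enoyl-CoA hydratase, was at 2886 and 3069 (0.089). *Hadh*, the short chain hydroxyacyl-CoA dehydrogenase, was at 4295 and 4964 and had the highest ratio of the spiral, 0.21. *Acaa2*, the thiolase that closes the spiral, was at 19252 and 18258 (-0.076).

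Unsaturated chains need additional enzymes, and these stayed near their WT values. *Eci1*, an enoyl-CoA isomerase, was at 4532 in WT and 4045 in KO (-0.16). *Eci2*, its relative of mitochondria and peroxisomes, was at 3930 and 4051 (0.044), and the dienoyl-CoA reductase *Decr1* at 3743 and 3775 (0.012).

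The electron transfer genes had lower values in KO in 3 of 3 cases, where 6564 of the 11367 expressed genes were lower. This was the only role in which every gene was lower, among roles of 2 to 9 genes. *Etfa*, which encodes the alpha subunit of the electron transfer flavoprotein, was at 1614 in WT and 1264 in KO, a change of -21.7%, and its ratio of -0.35 was the lowest of the 35. *Etfb*, the beta subunit, was at 10400 and 8574 (-0.28). It shares 617 exon bases with Gm45233 on the same strand, so reads there could come from either gene. *Etfdh*, which passes the electrons on to ubiquinone, was at 3701 and 3388 (-0.13). Both subunit genes remained under -0.25 without a pseudocount and with a pseudocount of 10. After centring, and also after scaling to the same sum, 1 of the 35 genes was under -0.25, which was *Etfa*.

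For ketone bodies, *Acat1*, the thiolase that joins acetyl-CoA units, was at 4989 in WT and 4903 in KO (-0.025). *Bdh1*, which reduces acetoacetate to beta-hydroxybutyrate, was at 4305 and 4893 (0.18). Neither reached the limit of 0.25.

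The peroxisomal genes were split. *Ehhadh*, the bifunctional enzyme of the PPARA-inducible peroxisomal pathway, was at 19949 in WT and 24887 in KO (0.32). The thiolases that end that pathway were close to their WT values, with *Acaa1a* at 9074 and 8747 (-0.053) and *Acaa1b* at 63327 and 62919 (-0.0093). *Acaa1a* and *Acaa1b* are copies on chr9 whose transcripts are 91.0% identical over the aligned bases, and 21.6% of the 100-base stretches of *Acaa1a* occur unchanged in *Acaa1b*, so reads could be divided between them.

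The acyl-CoA thioesterases gave the highest group of ratios. *Acot1*, the cytosolic long chain form, was at 5811 in WT and 7253 in KO (0.32). *Acot2*, the mitochondrial form, was at 342 and 470 (0.46). The peroxisomal forms *Acot3* and *Acot4* were at 1278 and 1796 (0.49) and at 593 and 853 (0.52). All 4 had higher values in KO, by 24.8 to 43.8%, with a median ratio of 0.47.

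These 4 genes lie in a row on the plus strand of chr12 in mm10, in the order *Acot2* (chr12:83987861-83993873), *Acot1* (chr12:84009490-84018371), *Acot4* (chr12:84038379-84048601) and *Acot3* (chr12:84052144-84060402). The gaps between them are 15616, 20007 and 3542 bases. They are related copies: 16.5% of the 100-base stretches of the *Acot1* transcript occur unchanged in *Acot2*, and 4.79% in *Acot3*, so that reads of these genes could be shared out in the counting. *Acot4* shares almost no such stretches, 0.41% of those of *Acot1*, 0.63% of those of *Acot3* and 0 of those of *Acot2*. *Acot4* also shares 615 exon bases with the antisense gene 4732463B04Rik. Since no step of the library protocol marks strand, reads from this pair cannot be told apart. *Acot3* shares 396 exon bases with Gm49366 on the same strand. Leaving out *Acaa1b*, *Acot2*, *Acot3* and *Acot4* left 31 genes with a median ratio of 0.044, 7 of them over 0.25 (22.6%) and 0 over 0.5. The last count follows from leaving out *Acot4*, the only gene over 0.5.

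**Figure D2:**
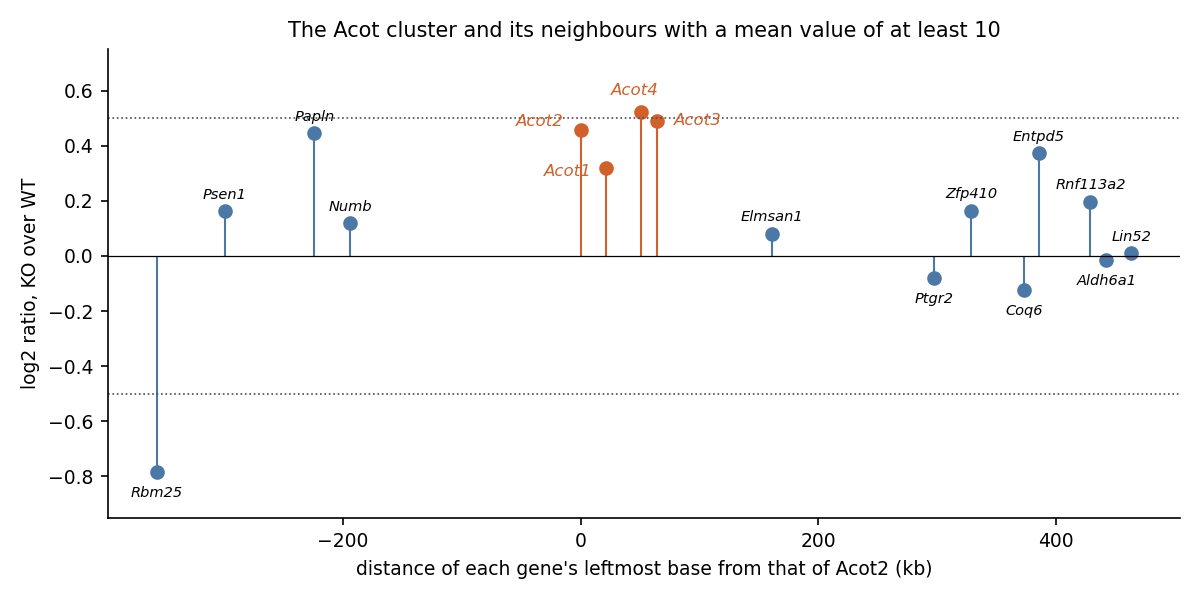
Log2 ratio of the KO to the WT value (y axis) of expressed genes on chr12, against the distance in kb of each gene's leftmost base from that of *Acot2* (x axis). The 4 *Acot* genes (orange) stand together between 0.32 and 0.52, while the nearest expressed neighbours (blue), *Numb* and *Elmsan1*, are at 0.12 and 0.081. Farther away, *Papln* at 0.45 and *Entpd5* at 0.37 lie within the range of the *Acot* genes. The largest difference drawn is that of *Rbm25*, at 382 in WT and 222 in KO (-0.78). *Acot5* and *Acot6*, which follow the cluster, had mean values of 1.46 and 4.87 and are not drawn.

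Other thioesterases of the same and other families were at hand as a list of 11, of which 10 had a row and 7 were expressed. Their median ratio was -0.036, with 0 over 0.25 and 1 under -0.25. The highest of them, *Them4*, was at 155 in WT and 176 in KO (0.19). None of these 7 genes was thus over 0.25, a limit that 12.4% of all expressed genes passed. With so few genes, a count of 0 does not set these thioesterases apart from other genes. All 4 genes of the chr12 row were over 0.25, a difference that has no test.

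Of the fasting targets, *Vnn1*, a pantetheinase induced by PPARA in the fasted liver, was at 1523 in WT and 1919 in KO (0.33). *Pdk4*, the kinase that switches off pyruvate dehydrogenase when fatty acids are burned, had the lowest level of the 35 genes, 55.1 in WT and 73.9 in KO (0.42). Because *Pdk4* was weak, its reads in each library could be worked out from the midpoint of its WT and KO values. It was the only one of the 35 genes for which this was possible, as the other weak gene, *Cd36*, left 56 possible sets of reads.

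The libraries are numbered here within each genotype from the largest size factor down, since the values do not carry the pool numbers of the labels. *Pdk4* had 136, 81 and 41 reads in KO libraries 1 to 3, and 98, 22 and 44 reads in WT libraries 1 to 3. Divided by the size factors these were 103.6, 78.2 and 46.3 normalised reads in KO and 80.02, 25.02 and 53.8 in WT. The groups overlapped, the lowest KO library being below WT libraries 1 and 3 and the highest library being KO library 1.

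The means were 76.0 ± 28.7 normalised reads in KO and 52.9 ± 27.5 in WT (SD, n = 3 each, exact permutation test, two-sided, p = 0.5, where the smallest p this design allows is 0.1). With limma across the 3307 weak genes tested, the log2 difference of *Pdk4* was 0.59 (SE 0.54), with an unadjusted p of 0.30 and a Benjamini-Hochberg adjusted p of 0.999. Among those genes 0.0302% had an adjusted p under 0.05, which was 1 gene (*Moap1*), and 1.91% an unadjusted p under 0.05. Without KO library 1 the difference of *Pdk4* was 0.33, and without WT library 2 it was 0.14, so that its size rested on those libraries. The difference between the means, 23.1 normalised reads, was smaller than the SD of either genotype.

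*Pdk4* and *Cd36* are also expressed in adipocytes, and adipocyte markers were therefore read in the same libraries. *Adipoq*, the adipocyte hormone adiponectin, had 61, 4 and 1 reads in KO libraries 1 to 3 and 0, 2 and 0 in WT. *Plin1*, the perilipin of adipocyte lipid droplets, had 40, 7 and 1 reads in KO and 0, 4 and 0 in WT. KO library 1 was the highest for both markers and for *Pdk4*, but the other libraries did not follow the same order.

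Summed over the 5 adipocyte markers with a row, the libraries ranged from 21.5 to 371.8 normalised reads in KO and from 19.6 to 120.6 in WT. KO library 1 held 488 of these reads. WT library 2, the next with 106, had the lowest *Pdk4* of all 6 libraries, and WT library 1, with the lowest normalised sum, had the second highest *Pdk4*. In WT libraries 1 and 3 the defining markers *Adipoq* and *Plin1* were at 0 reads. By the authors' values, 2 of the 5 markers had a mean of at least 10, *Fabp4* at 31.1 in WT and 36.2 in KO and *Cfd* at 42.1 and 68.0, a ratio of 0.68 for the latter. The part of these markers in the values of *Pdk4* and *Cd36* was not tested.

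**Figure D3:**
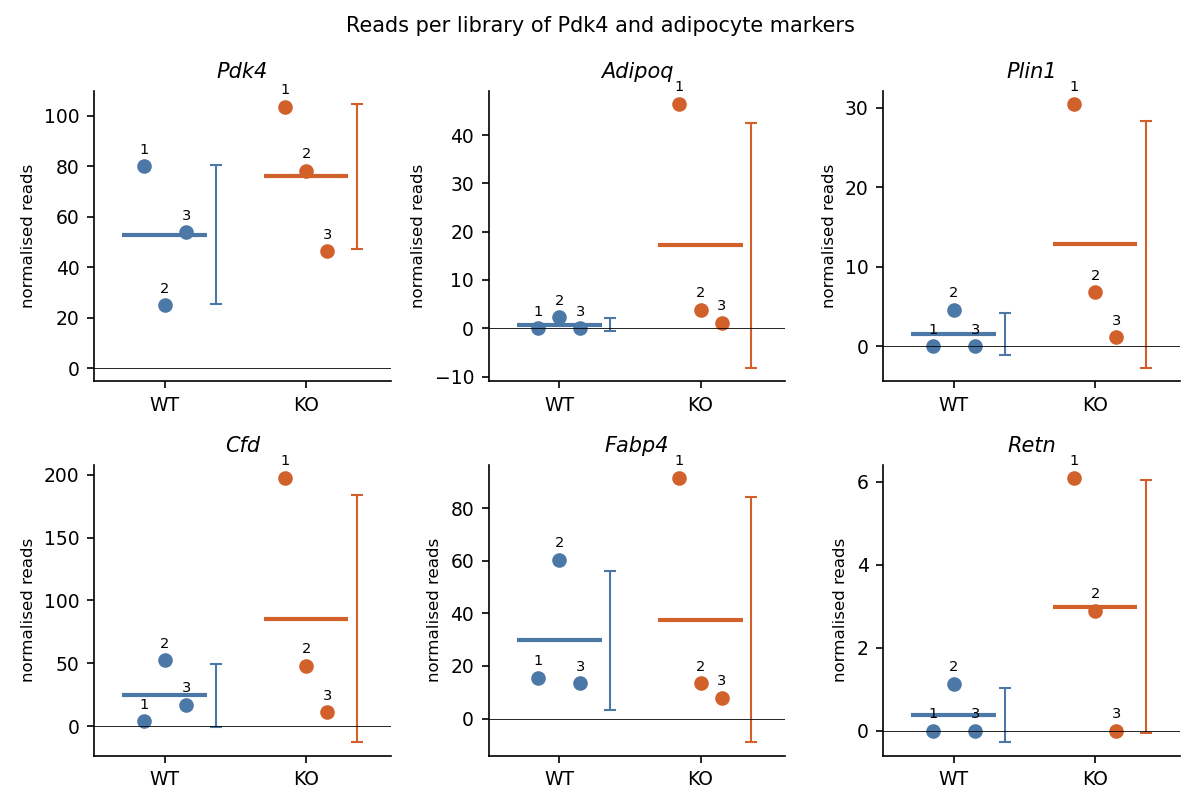
Normalised reads (y axis) of *Pdk4* and of 5 adipocyte markers in the 3 WT and 3 KO libraries, with 1 numbered point per library, the mean as a line and the SD as a bar beside it. The *Pdk4* points of the genotypes overlap, and KO library 1 is the highest point in all 6 panels, with 46.5 normalised reads of *Adipoq* where no other library exceeds 3.86.

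The authors' values give smaller ratios than the reads do. Of the 1004 weak genes whose mean reads differed by a log2 ratio beyond 0.5, all 1004 had a smaller ratio in the authors' values, with a median of 0.709 of that of the reads. For *Pdk4* the ratio of the mean reads was 0.51 and that of the authors' values 0.42. A value in WT or KO is therefore not the mean of that genotype's libraries. The ratios of the strong oxidation genes could not be compared with reads in this way.

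Levels between genes can be compared only per length of the gene model. By the mean of both genotypes, *Fabp1* was highest with 68205 per kb, followed by *Acaa1b* with 37821 and *Slc27a2* with 16217. The lowest were *Acot2* with 183.2, *Cd36* with 39.0 and *Pdk4* with 18.7 per kb. The genes of the thioesterase cluster were far apart in level, with *Acot1* at 4190 per kb and *Acot4* at 311.0, with ratios of 0.32 and 0.52. Without an error per gene, neighbours in this order cannot be separated, and the spiral enzymes lay close together between *Acadl* with 1299 and *Acadvl* with 3923 per kb, apart from *Acaa2* with 12503.

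**Figure D4:**
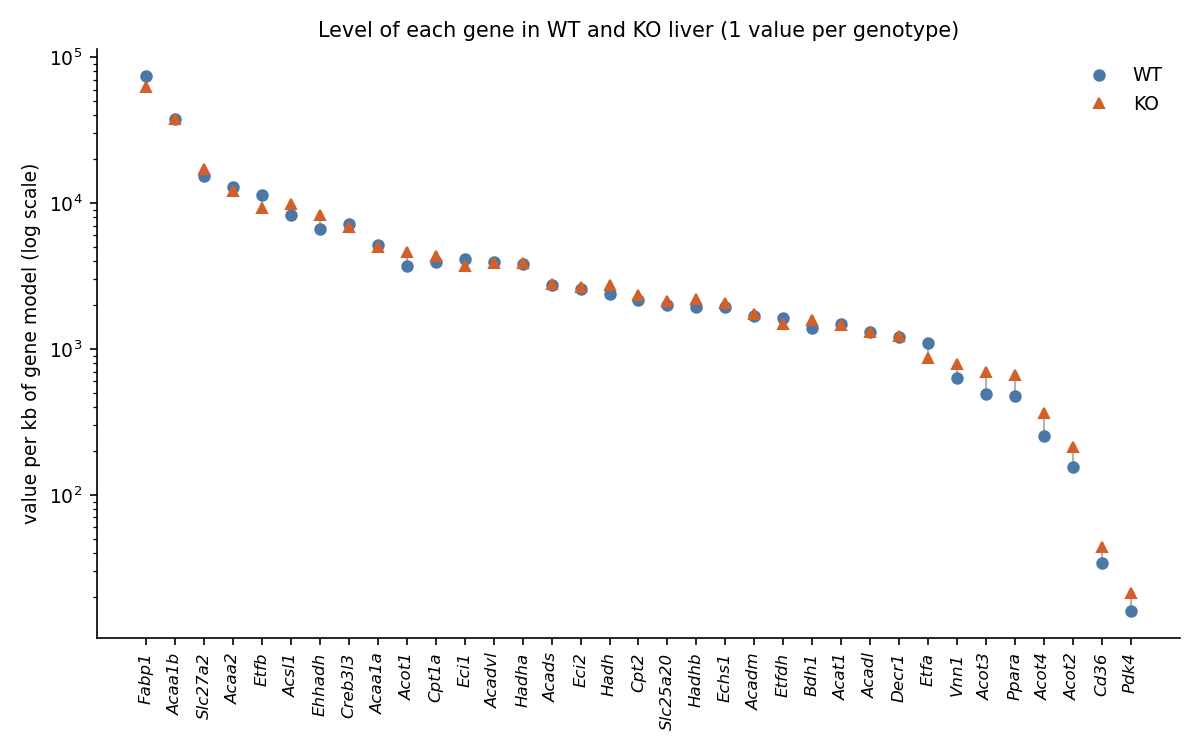
Value per kb of gene model in WT (circles) and KO (triangles) for the 35 oxidation genes, on a log10 y axis, ordered along the x axis by the mean of both genotypes. Levels span from 68205 for *Fabp1* to 18.7 for *Pdk4*, and the genotypes are close to each other at every level compared with the distance between genes.

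A list of 49 further oxidation and ketone genes, 46 of them expressed, had a median ratio of -0.021, with 1 gene over 0.5 and 1 under -0.5. *Slc22a5*, the carnitine transporter of the plasma membrane, was at 802 in WT and 1177 in KO (0.55). *Acsl4*, a synthetase that prefers arachidonic acid, was at 227 and 116 (-0.97). At the limit of 0.25, 3 of the 46 were over (6.52%) and 8 under (17.4%), both shares being somewhat below the 12.4% and 22.2% of all expressed genes.

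Further PPARA targets numbered 32, with 27 expressed, a median ratio of 0.079, 4 over 0.5 (14.8%) and 0 under -0.5. Among all expressed genes 2.38% were over 0.5 and 7.61% under -0.5. At the limit of 0.25, 7 of the 27 were over (25.9%) and 5 under (18.5%), against 12.4% and 22.2% of all expressed genes. Besides *Slc22a5*, which is also in the list before, the 4 over 0.5 included *Pex11a*, which divides peroxisomes, at 552 in WT and 888 in KO (0.69). The others were the fatty acid omega-hydroxylases *Cyp4a14*, at 72416 and 103093 (0.51), and *Cyp4a31*, at 3388 and 4840 (0.51). The *Cyp4a* genes are close paralogs whose reads could be shared out in the counting. Of the 27 targets, 10 had a lower value in KO, *Fgf21* among them at 577 in WT and 449 in KO (-0.36). Among all expressed genes, 6564 of 11367 had a lower value in KO.

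Among 30 partners and regulators of PPARA, the median ratio was 0.033, with 1 over 0.5 (3.33%, against 2.38% of all expressed genes). That gene, *Lpin1*, a phosphatidate phosphatase that also acts as a coactivator of PPARA with PGC-1alpha, was at 786 in WT and 1568 in KO (0.996). *Ppargc1a*, which encodes PGC-1alpha, was at 103.2 and 76.2 (-0.43), and *Rxra*, the partner of PPARA on DNA, at 10240 and 12078 (0.24). Of the 16 expressed peroxisome biogenesis genes, *Pex11a* was the only one over 0.5 and the median was 0.042.

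**Figure D5:**
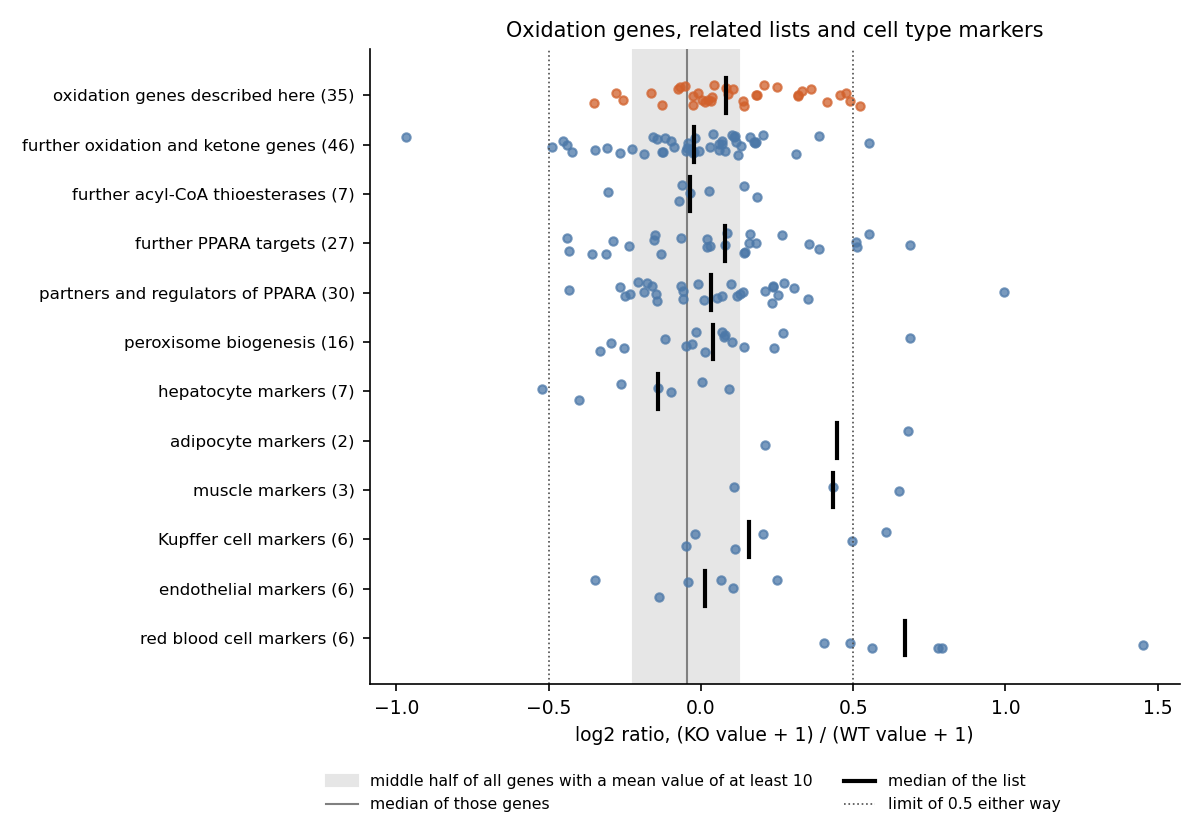
Log2 ratio of the KO to the WT value (x axis) for the 35 oxidation genes (orange), 5 related lists and 6 marker lists (blue), with 1 point per expressed gene and a black bar at each list's median. The 35 genes have a median of 0.083 and the further PPARA targets one of 0.079, whereas the red blood cell markers lie to the right of both with a median of 0.67.

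Markers of other cell types also had values that differed between genotypes. All 6 red blood cell markers had higher values in KO, with ratios from 0.40 to 1.45, 4 of them over 0.5: *Slc4a1* (1.45), *Hbb-bs* (0.79), *Hbb-bt* (0.78) and *Hba-a1* (0.56). Among all 11367 expressed genes, 42.3% were higher in KO, 2.38% were over 0.5 and 7.61% under -0.5. Of the 7 hepatocyte markers 5 were lower in KO, where 6564 of the 11367 expressed genes were lower. With 7 genes, this count does not set the hepatocyte markers apart from other genes. *Apob* was under -0.5 at 35805 in WT and 24961 in KO (-0.52), and the median of the 7 was -0.14. The Kupffer cell markers had a median of 0.16, with 4 higher and 2 lower in KO. *Marco*, the only one over 0.5, was at 47.8 and 73.5 (0.61). Its groups overlapped, with 52.6, 49.2 and 129.8 normalised reads in KO libraries 1 to 3 and 13.9, 69.4 and 48.9 in WT. The 3 expressed muscle markers had a median of 0.43, with the cardiac myosin *Myh6* at 58.5 and 92.5 (0.65). The groups of *Myh6* also overlapped, and its highest library was KO library 3. Endothelial markers had a median of 0.013 with 0 of 6 past 0.5. The part of these cell types in the ratios of the oxidation genes was not tested.

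Reads per library were resolved for 34 of the 198 genes with a row in any list, all of them weak and *Pdk4* and the 6 muscle markers among them. Among these 34, *Ckm*, the muscle creatine kinase, was the only gene whose groups did not overlap. It had 5, 4 and 11 reads in the KO libraries and 1, 3 and 0 in the WT libraries, or 6.70 ± 4.96 and 1.41 ± 1.78 normalised reads (SD, n = 3 each, exact permutation test, two-sided, p = 0.1, the smallest this design allows). No WT library had more than 3 reads of it. *Ckm* had 24 reads in all and a mean value of 4.05, below the limit for expressed genes. The share of all resolved genes whose groups did not overlap was not counted. Without that share, 1 gene of 34 does not set *Ckm* apart from other genes. Summed over all 6 muscle markers, the libraries ranged from 64.0 to 306.0 normalised reads in KO and from 55.0 to 136.5 in WT, and the highest was KO library 3.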

How the data were processed

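RNA of 6 liver pools was sequenced by the authors' service, and per the labels' processing notes the mm10 build and HISAT2, StringTie, Cufflinks, GATK, Bowtie2 and RSEM were named, without roles. The deposited table gave 1 normalised expression signal per genotype and gene, and its fold changes, p-values and direction calls were not used. Clean read counts and mapping percent per library came from the deposited summary. Splicing and read filter summaries were not used.

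The 35 genes and all lists were chosen with earlier results of these data known. Named are all 35 genes and, from the other lists, those whose values averaged 10 or more and whose log2 ratio was beyond 0.5, or whose groups were separate. Genes given for context (*Them4*, *Fgf21*, *Ppargc1a*, *Rxra*, *Moap1*, the adipocyte markers and the neighbours of the *Acot* genes) were named after their values were seen.

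Means of normalised reads take steps of 1 read over the size factor, so reads were resolved into 6 whole numbers for 8063 of the 8081 genes that sum to at most 400 normalised reads (Python 3, numpy and numba), with size factors of 0.818 to 1.31. Which genotype a library belongs to followed from genes whose reads fall in 1 genotype. The procedure was also run on simulated data whose spread between libraries was set in advance. That run does not show how limma performs at the spread of these libraries. limma 3.58.1 in R 4.3.3 was run on log2(normalised reads + 1) of 3307 genes with a sum of 60 to 400. A test on counts could not be run for most genes, whose counts per library were not analysed here. The p-values measure the spread between pools of 3 mice. Positions came from GENCODE M21 (GRCm38). In 26 of 35 promoter windows the start lay in the first 400 bases of a transcript of the gene.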

Additional observations from a re-analysis of the deposited data

How the results depend on the processing

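The count of oxidation genes over the limit of 0.5 was 1, and it stayed 1 without a pseudocount, with a pseudocount of 10 and with the genes that averaged 100 or more. It became 4 when ratios were centred on the median of all expressed genes and 5 when both genotypes were scaled to the same sum. It was 0 when *Acaa1b*, *Acot2*, *Acot3* and *Acot4* were left out, which follows from removing *Acot4*, the only gene over 0.5. It was 0 at a limit of 1 and 10 at a limit of 0.25, where the count of lower genes was 3 in place of 0. Centring shifted every ratio by 0.047 and scaling by 0.094, which changed the sign of 3 and 6 of the 35 genes. The median ratio ranged from 0.044 to 0.18. The share of all genes past 0.5 was 1.47% higher and 2.21% lower in KO among genes that averaged 1000 or more. For the reads per library, the log2 difference of *Pdk4* ranged from 0.14 to 0.95 as each library was left out, and the number of genes with an adjusted p under 0.05 in limma from 0 to 1 (26 to 152 with an unadjusted p under 0.05). The adjusted p of *Pdk4* was at least 0.960 in each of these settings. No paired analysis was possible because the genotypes share 1 pool number and the values do not carry pool numbers. With 1 value per genotype, no error can be given for 34 of the 35 genes.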
